A study of Mus musculus with 4 samples.

Results

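The start regions and bodies of 4 genes, Nfkb1, Chsy1, Zfp521 and Ep300, were examined for DNA methylation in 2 sperm fractions of the mouse, swim-up sperm and histone replacement-completed sperm (HRCS). The members are the CG sites with at least 5 reads in each of the 4 libraries, after both strands of a site were added together, inside 4 fixed intervals of the mm9 genome. These are chr3:135240000-135365000 for Nfkb1, chr7:73250000-73325000 for Chsy1, chr18:13840000-14140000 for Zfp521 and chr15:81410000-81490000 for Ep300. They held 829 such sites, of 2638319 in the whole data set, with 322 sites at Nfkb1, 152 at Chsy1, 207 at Zfp521 and 148 at Ep300. The genes were chosen by name: the study places Zfp521 and Ep300 in category_H, its name for genes with a histone H3 peak in HRCS, and its primer list for PCR after chromatin immunoprecipitation, which it ran on genes of that category, holds Nfkb1 and Chsy1. By that PCR the study found the silencing mark H3K9me2 of histone H3, and not H3K9me3, at promoters of category_H genes in HRCS. Neither these marks nor the H3 data themselves were analysed here.

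Most histones are exchanged for protamines while spermatids mature. The study found most of its H3 peaks at CpG islands, while it cites other groups that reported the remaining nucleosomes in gene-poor regions. A CpG island is a stretch rich in CG dinucleotides, it usually covers the start of a gene, and it is usually free of methylation, whereas the CG sites scattered through a gene body are mostly methylated in sperm. Nfkb1 encodes the precursor of a DNA-binding subunit of NF-kB, the transcription factor of inflammatory signalling. Chsy1 encodes chondroitin sulfate synthase, which extends the sugar chains of proteoglycans. Zfp521 encodes a zinc-finger protein that drives neural differentiation of embryonic stem cells, and Ep300 encodes the lysine acetyltransferase that acts with it as a co-activator.

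All 4 libraries came from wild-type C57BL/6 males, 11 to 12 weeks old by the study's methods, and no genotype or drug was compared. The fractions had 2 libraries each. Swim-up sperm is the motile fraction taken from the upper medium, and by the study's account it still holds sperm that have not finished replacing their histones. HRCS is the dense sperm-head fraction that passes through 82% Percoll after the tails are sheared off by mild sonication, from sperm of the cauda epididymis and vas deferens. The fractions therefore differ in motility selection, density and sonication together, and these cannot be told apart. A difference in tissue cannot be told apart either, since the labels give the same tissues for every library while the study speaks of the cauda alone for swim-up sperm. Nothing states that the libraries came from separate animals, so the spread between replicates may be technical. The libraries were made by targeted bisulfite sequencing (TGBS), in which captured DNA is treated with bisulfite, so that only methylated cytosines are still read as cytosine. The methylation level of a CG site is the percentage of its reads that are methylated. The libraries held between 71379227 and 89403347 calls each, a call being the state of 1 CG site in 1 read. Of the 6604 CG sites listed in the 4 intervals, 12.6% had enough reads. A start island was defined from positions alone, as the stretch of listed CG sites with at least 10 sites per 200 bp that held the gene's start where its promoter could be placed, and otherwise the stretch with the most CG sites. The gene side is the remainder of the interval in the direction of transcription and the upstream side is the remainder on the other flank. The ends of the genes were not used, so the gene side may run past them. A distance given as inside a gene is therefore a distance from the island only.

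The promoters of Chsy1 and Ep300 are shown because they are the parts of these islands whose sequence could be placed exactly among the measured sites. Both are RefSeq sequences of GRCm38.p6, read 5′ to 3′ on the plus strand from 250 bases before the gene's start to 50 bases after it, with every CG dinucleotide in capitals. In that build they lie at chr7:66109242-66109541 and chr15:81585964-81586263, and the spacing of their CG sites matched 1 place each in mm9, at chr7:73254128-73254427 and chr15:81416394-81416693.
Chsy1: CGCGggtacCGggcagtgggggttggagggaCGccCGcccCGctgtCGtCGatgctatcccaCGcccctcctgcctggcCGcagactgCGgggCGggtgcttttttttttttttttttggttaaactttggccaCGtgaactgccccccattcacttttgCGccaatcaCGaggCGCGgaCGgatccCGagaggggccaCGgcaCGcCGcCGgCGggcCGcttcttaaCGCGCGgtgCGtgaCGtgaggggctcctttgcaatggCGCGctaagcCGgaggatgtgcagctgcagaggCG
Ep300: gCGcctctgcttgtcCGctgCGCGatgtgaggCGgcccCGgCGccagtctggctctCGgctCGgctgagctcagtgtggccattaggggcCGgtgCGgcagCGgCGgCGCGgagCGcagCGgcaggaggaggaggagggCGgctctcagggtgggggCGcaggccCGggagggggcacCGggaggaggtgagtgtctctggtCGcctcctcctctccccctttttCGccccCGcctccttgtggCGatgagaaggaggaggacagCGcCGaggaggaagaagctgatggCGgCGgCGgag
The Chsy1 promoter holds 34 CG sites in 300 bases, a number that 7.73% of the 32851 RefSeq promoters reach, and the Ep300 promoter holds 30, which 11.7% reach. In Chsy1, 23 of the capitals had a level and 17 of those had no methylated call in any library, the highest being at 2.78%. In Ep300, all 30 had a level, 14 had no methylated call and the highest was at 4.83%. The mean level of the Chsy1 promoter was 0.395% and 0.00% in the swim-up libraries, against 0.755% and 1.24% in the HRCS libraries, which did not overlap. These values lie near the floor and rest on few methylated calls. Both HRCS libraries were higher at 20.9% of all promoters with a level and lower at 12.1%. The mean level of the Ep300 promoter was 1.16% and 1.17% in swim-up sperm, against 1.01% and 1.30% in HRCS, which did overlap.

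The start islands of all 4 genes were almost free of methylation in both fractions, while the measured CG sites farther inside the genes were methylated. The island of Nfkb1 (chr3:135353694-135355042, 1349 bp) held 148 listed CG sites, 106 of them with a level, and its mean level was 1.41% and 0.596% in the swim-up libraries, against 1.42% and 0.903% in the HRCS libraries. Chsy1 had the densest island (chr7:73253783-73255334, 1552 bp), with 199 listed sites, 12.8 per 100 bp, and the mean over the 89 sites with a level was 1.35% and 0.676% in swim-up sperm, against 1.07% and 1.34% in HRCS. In both genes the ranges of the fractions overlapped. The island of Ep300 (chr15:81415308-81417299) was the longest, with 1992 bp, 176 listed sites and 129 with a level. Its mean level was 0.829% and 1.16% in swim-up sperm, against 1.35% and 2.54% in HRCS. Here both HRCS libraries lay above both swim-up libraries.

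For Zfp521, no promoter sequence was at hand, and the stretch with the most CG sites was taken (chr18:14130719-14131634, 916 bp). Only 15 of its 97 listed sites had a level. Their mean was 1.20% and 0.00% in swim-up sperm, against 1.42% and 0.635% in HRCS. The swim-up library at 0 had 0 of 189 calls methylated, which allows a share of up to 1.59%, so these values differ by less than the depth can resolve. Nfkb1 was treated in the same way, but its interval had no other dense stretch to choose from.

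Within the islands, single sites rose above the floor only through a few reads. No methylated call was seen in any library at 71 of 106 sites in Nfkb1, at 54 of 89 in Chsy1, at 11 of 15 in Zfp521 and at 59 of 129 in Ep300. These shares were 67.0%, 60.7%, 73.3% and 45.7%, against 38.4% of all measured sites in CG-dense stretches of the genome. Such a share depends on read depth, which was not matched. The 3 highest sites of Nfkb1 lay between 8.13% and 8.33% over the 4 libraries, those of Chsy1 between 5.24% and 7.81% and those of Zfp521 between 1.92% and 7.38%. Those of Ep300 lay between 8.89% and 15.5%, and its highest, at position 81415500, was the highest of all. This site had 0 of 6 methylated reads in both swim-up libraries, 3 of 9 in HRCS replicate 1 and 2 of 7 in HRCS replicate 2, so 5 reads carried its level. The share of unconverted cytosines, which also counts as methylated, was not measured here. Among 20172 CG-dense stretches of the genome with at least 10 measured sites, the median level was 1.23% and 91.3% stood at or below 10%. The share of these stretches at or below the level of the island was 32.3% for Nfkb1, 35.5% for Chsy1, 5.71% for Zfp521 and 68.2% for Ep300. The islands of the 4 genes thus lay inside the common range of dense stretches in level. As a description of their size, 92.4%, 97.6%, 77.1% and 95.9% of the stretches had no more listed sites than Nfkb1, Chsy1, Zfp521 and Ep300, respectively, and the island of Zfp521 had been picked for its number of sites.

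**Figure D1:**
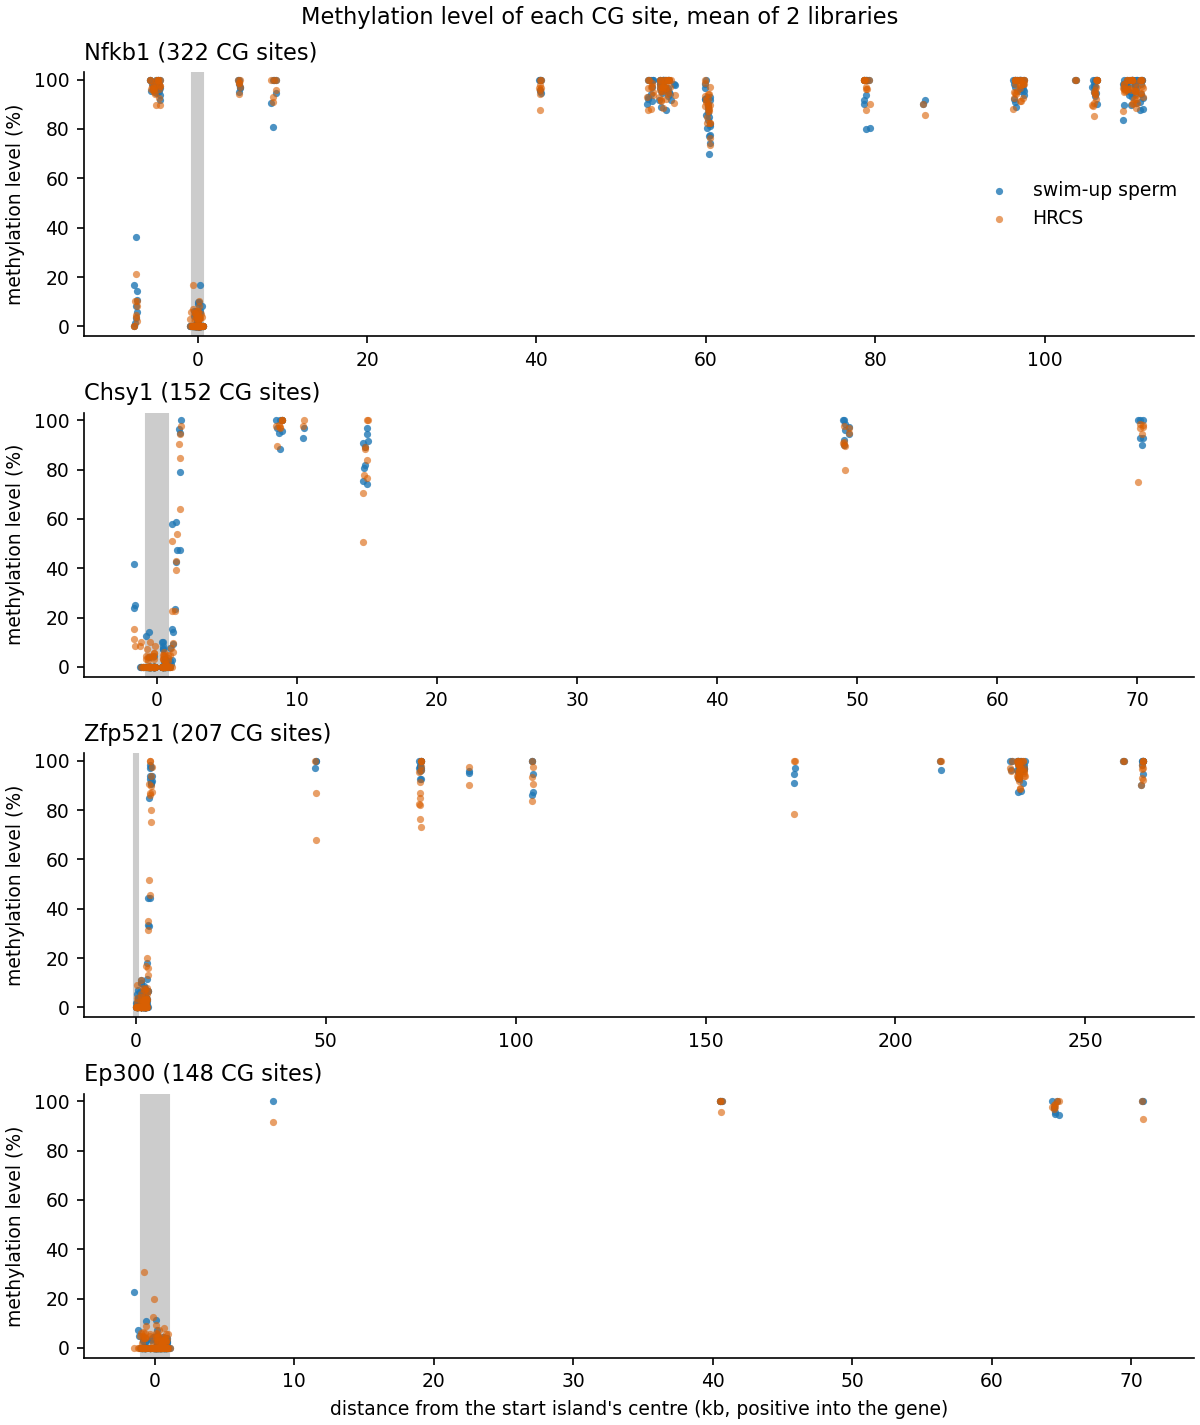
Methylation level (%, mean of the 2 libraries of a fraction) of every measured CG site against its distance from the centre of the start island (kb, positive into the gene), with swim-up sperm in blue, HRCS in orange and the start island in grey. Sites in the 4 islands lie near 0, and those far inside the genes lie mostly above 75%.

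The means over whole gene sides differed far more between genes than between fractions, but farther from the island the genes were alike. Sites more than 20 kb away averaged 95.4% in swim-up sperm and 95.2% in HRCS in Nfkb1, and 96.0% and 92.2% in Chsy1. In Zfp521 they averaged 96.8% and 94.4%, and in Ep300 98.4% and 98.3%. The means over whole gene sides thus depend on how many measured sites lie near the island. In Nfkb1, the 180 measured sites of the gene side averaged 96.1% and 94.8% in the swim-up libraries, against 95.3% and 95.3% in the HRCS libraries, and 179 of them stood above 75%. The lowest of these sites was at 73.8%, so no unmethylated element was seen among the measured sites of the gene side. In Ep300, the gene side had only 15 measured sites of 538 listed, and their mean was 92.0% and 91.9% in swim-up sperm, against 89.98% and 92.7% in HRCS. Of these, 14 were above 90% and 1, next to the island, had no methylated read. In Chsy1 the mean of 54 sites was 69.7% and 70.5% in swim-up sperm, against 68.1% and 69.1% in HRCS. There the sites were mixed, with 12 at or below 25%, 6 between 25% and 75% and 36 above. In Zfp521 the mean of 192 sites was 44.2% and 43.6% in swim-up sperm, against 42.6% and 43.2% in HRCS, with 105 sites at or below 25%, 3 in between and 84 above 75%. The middling means of Chsy1 and Zfp521 therefore averaged low and high sites, with few sites of middle level.

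Taken within each library, the gene side stood above the start island by 94.3 ± 0.317 percentage points in Nfkb1, 68.3 ± 1.19 in Chsy1, 42.6 ± 1.05 in Zfp521 and 90.2 ± 1.13 in Ep300 (mean ± SD, n = 4 libraries). The gap was positive in 4 of 4 libraries for each gene, and the exact sign-flip permutation test gave a two-sided p = 0.13 for each, which is the smallest p that 4 libraries allow. The spread between libraries was small beside every gap. The value of Zfp521 depended on where the island was taken to end and on which sites had a level. A minimum of 20 reads, which left 1 island site and 22 gene-side sites, gave 85.8 points. When dense stretches up to 500 bp apart were joined, which was tried only once the values were known, the gap of Zfp521 was 82.5 points, and those of the other 3 genes did not move.

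**Figure D2:**
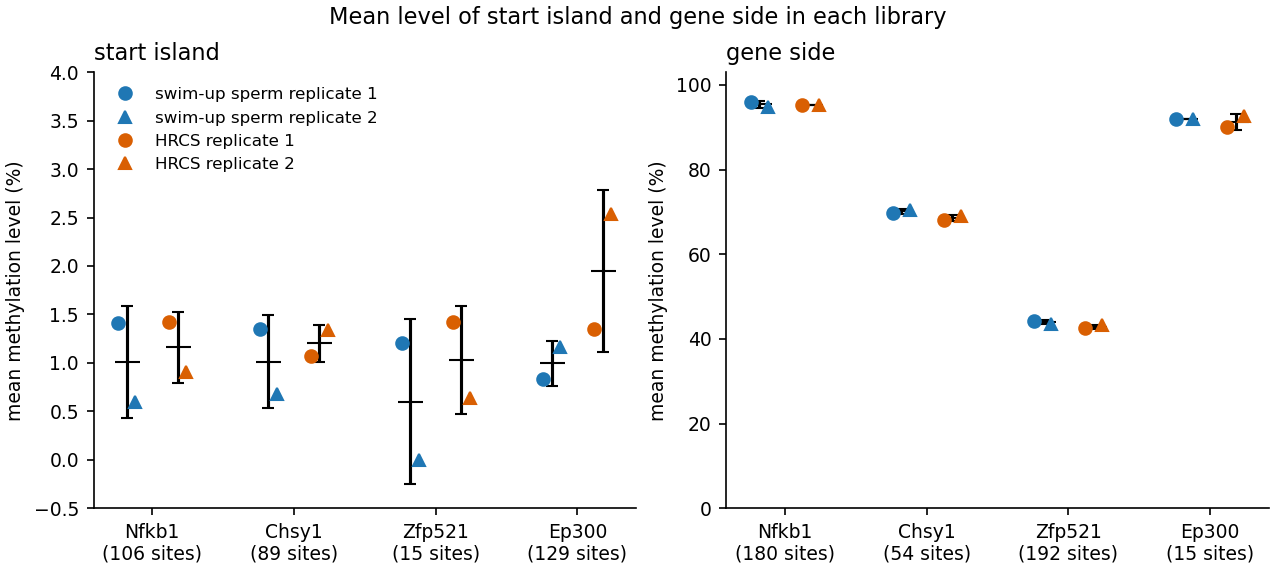
Mean methylation level (%) of the start island (left) and of the gene side (right) in each library, with the number of measured CG sites below each gene. Circles and triangles are replicates 1 and 2, black bars are the mean ± SD of the 2 libraries of a fraction, and the HRCS libraries of Ep300 lie above the swim-up libraries in the island panel only.

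The edge of the unmethylated domain toward the gene could be followed site by site in Chsy1 and Zfp521. In Chsy1 the level rose unevenly beyond the gene-side end of the island. The first 9 sites, up to 336 bp, stood at 19.02% or below, and the next site, at 350 bp, was the first above 50%, with 54.6%. Low levels returned at 356 bp with 12.02%, at 411 bp with 7.80% and at 559 bp with 23.1%. The 12 sites within 500 bp of the island averaged 9.69% and 9.11% in swim-up sperm, against 7.47% and 10.8% in HRCS. The 9 sites between 500 and 1000 bp averaged 68.2% and 62.8% in swim-up sperm, against 70.3% and 60.8% in HRCS. The means thus passed from low to high inside the same kilobase in all 4 libraries. The mean of the 19 sites between 5 and 20 kb and that of the 14 sites farther inside were 88.3% or higher in each library. On the upstream side of Chsy1, 6 sites within 500 bp averaged 0.00% in both swim-up libraries and 3.33% and 2.78% in HRCS. The 3 sites between 500 and 1000 bp stood at 44.4% and 15.9% in swim-up sperm and at 12.6% and 10.8% in HRCS, a partly methylated shoulder that was high in 1 swim-up library only.

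In Zfp521, the unmethylated domain ran on past the stretch with the most CG sites. A pair of further dense stretches followed on the gene side, at chr18:14129629-14130234 with 60 listed sites and at chr18:14128422-14129423 with 66. The nearer one, with 26 measured sites, averaged 2.17% and 1.54% in swim-up sperm, against 1.28% and 0.504% in HRCS. The farther one, with 59 measured sites, averaged 1.04% and 1.20% in swim-up sperm, against 1.12% and 2.05% in HRCS, and both stayed at or below 2.17% in every library. Taken as 1 domain of 3213 bp with 109 measured sites, the level was 1.56% and 1.09% in swim-up sperm, against 1.11% and 1.32% in HRCS. Low levels reached to 2759 bp from the 97-site stretch, where a site stood at 24.6%, and at 2973 bp a site stood at 87.6%, with 42.4% and 45.0% at the following sites, 3083 and 3123 bp away. The 73 measured sites over 20 kb inside the gene were at 97.1% and 96.5% in swim-up sperm, against 94.0% and 94.8% in HRCS. One more dense stretch, 43 listed sites at chr18:14002283-14003230, had no site with enough reads. Its 139 reads over all libraries and sites gave no level.

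At Nfkb1 and Ep300 the edges fell into stretches without measured sites. The 3 sites within 500 bp upstream of the Nfkb1 island had 0.00% in both swim-up libraries and 3.92% and 2.08% in HRCS, and the next measured site, 3787 bp upstream, was at 90.6%. On the gene side the nearest measured site was at 4057 bp, with 100% in every library. In Ep300, a site at 67 bp had no methylated read and the next one, at 7459 bp, stood at 95.8%. The borders therefore lie somewhere inside these gaps, and their shape was not resolved.

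**Figure D3:**
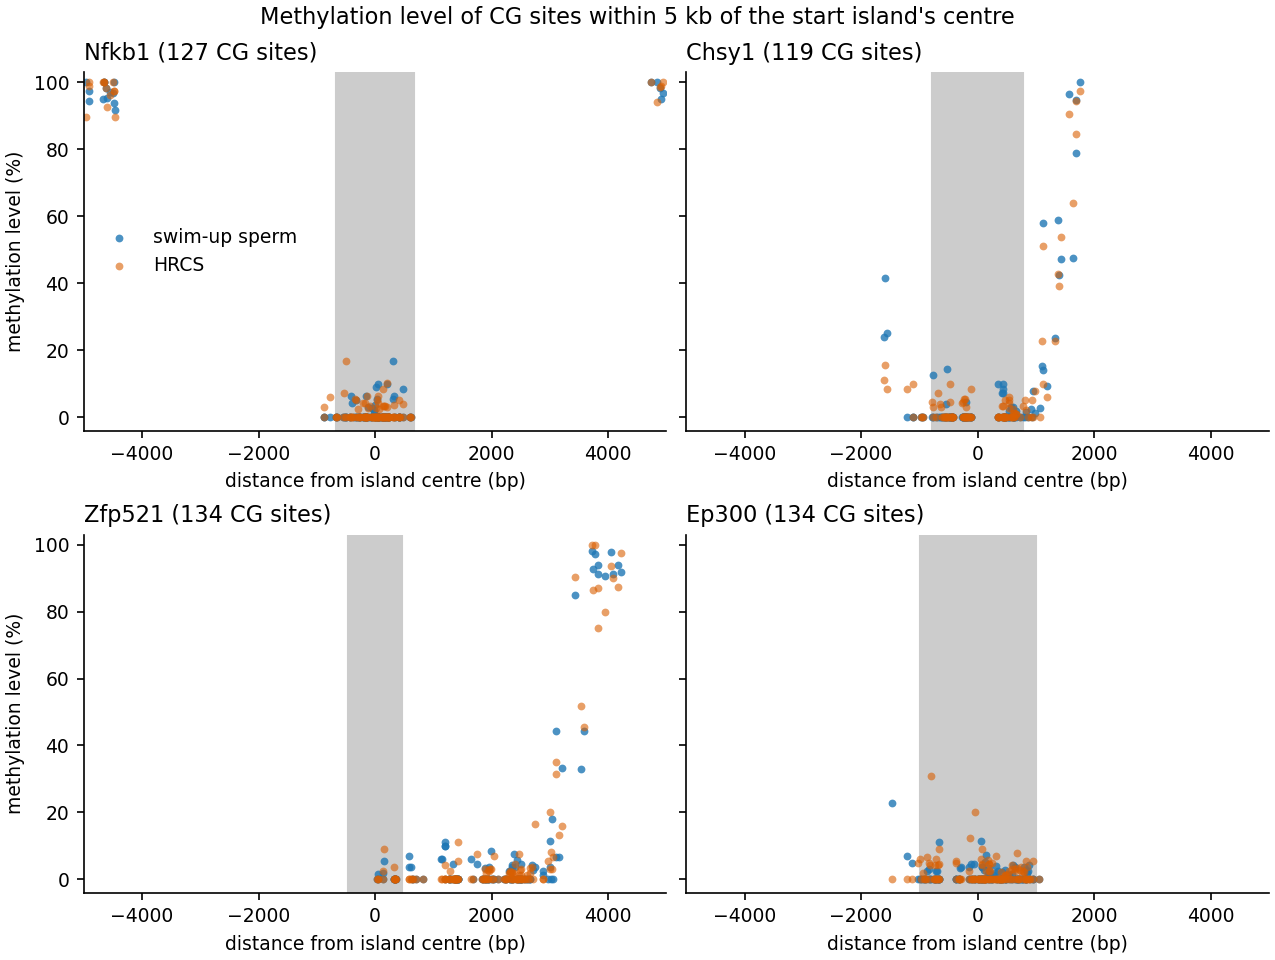
Methylation level (%, mean of 2 libraries) of measured CG sites within 5 kb of the start island's centre, in bp along the direction of transcription, with swim-up sperm in blue, HRCS in orange and the start island in grey. In Zfp521 the low sites continue beyond the grey stretch, and in Nfkb1 and Ep300 no measured site lies at the border.

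Upstream of Nfkb1 a separate low patch was present, described after its values were seen. The 23 sites between 2 and 5 kb upstream were methylated, with 97.3% and 97.3% in swim-up sperm, against 96.9% and 96.6% in HRCS. Beyond them, 9 sites at 6521 to 6821 bp upstream (positions 135361562 to 135361862) averaged 8.60% and 13.0% in swim-up sperm, against 7.40% and 6.08% in HRCS. Both HRCS libraries were lower there, with a difference of −4.05 points, which is close to the spread of 3.09 (SD) between the swim-up libraries. This patch had too few CG sites to count as a dense stretch.

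The comparison of the fractions asked whether HRCS and swim-up sperm differ in methylation level at these genes. From its TGBS data as a whole, the study describes HRCS as little different from swim-up sperm in methylation. It also places its H3 sites mainly in regions of lower methylation. By the study's staining assay most swim-up sperm had also completed histone replacement, so the comparison is no test of that step. In the start islands, HRCS minus swim-up sperm was 0.156 percentage points in Nfkb1, 0.190 in Chsy1, 0.428 in Zfp521 and 0.951 in Ep300. The SD between replicates reached 0.578, 0.476, 0.849 and 0.835 points in the same order, so only the difference in Ep300 was larger than the spread, and there it fell to 0.360 points without HRCS replicate 2 and to 0.142 points when a minimum of 20 reads left 16 sites. With 2 libraries against 2 no exact permutation p below 0.33 is possible, and none is given. HRCS libraries that are both higher were found in 1 of the 4 islands, against 22.1% of the dense stretches of the genome, with 11.9% both lower. By calls, the methylated share of the Ep300 island was 0.998% of 2404 calls and 1.07% of 2330 in swim-up sperm, and 1.33% of 2415 and 2.07% of 1935 in HRCS. The Wilson 95% interval of the last value, 1.52% to 2.80%, lay above that of swim-up replicate 1, 0.672% to 1.48%, but overlapped that of swim-up replicate 2, 0.728% to 1.58%. The interval of HRCS replicate 1, 0.940% to 1.86%, overlapped both, and such intervals cover counting error only. At the few CG calls of the mitochondrial genome, the methylated share also stood higher in HRCS, with 17.3% of 3423 calls and 21.9% of 2205, than in swim-up sperm, with 2.47% of 162 calls and 3.94% of 355, and its part in the result was not tested.

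On the gene sides the difference was −0.114 points in Nfkb1, −1.52 in Chsy1, −1.03 in Zfp521 and −0.647 in Ep300. The HRCS libraries were both lower in Chsy1 and Zfp521, where the SD between replicates was at most 0.741 and 0.459 points, and they overlapped with swim-up sperm in Nfkb1 and Ep300. How often gene sides or upstream sides of other genes separate in this way was not computed. Among all 200 bp windows of the genome, which are smaller regions, both HRCS libraries were lower in 16.1% and higher in 16.6%. When calls were pooled over sites in place of averaging sites, the fractions overlapped in both genes. The pooled share was then 68.8% and 65.4% in swim-up sperm, against 65.9% and 68.0% in HRCS, for Chsy1 (−0.209 points), and 50.9% and 45.9%, against 43.6% and 48.7%, for Zfp521 (−2.26 points). On the upstream sides, 4 sites of Ep300 stood at 7.14% and 10.2% in swim-up sperm, against 0.862% and 1.56% in HRCS. Both HRCS libraries were lower, a difference of −7.46 points with an SD of at most 2.16, but on only 59 to 88 calls per library, and the Wilson intervals of the pooled shares overlapped. The 36 sites upstream of Nfkb1 averaged 67.1% and 68.2% in swim-up sperm, against 66.9% and 66.2% in HRCS, both lower, a difference of −1.09 points. With pooled calls both HRCS libraries were higher there, with 72.8% and 73.2%, against 69.3% and 71.4%. Upstream of Chsy1 the fractions overlapped.

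Site by site, the libraries of the fractions mostly overlapped, with ties counted as overlap. Of the 829 sites, 44 had both HRCS libraries above both swim-up libraries (5.31%, against 7.98% of all measured CG sites), and 62 had both below (7.48%, against 7.83%). Among the 424 sites inside dense stretches, the islands and the further stretches of Zfp521 together, these numbers were 10 and 4 (2.36% and 0.943%), against 5.28% and 3.89% of such sites in the genome. Among the 405 sites outside they were 34 and 58 (8.40% and 14.3%), against 10.4% and 11.3%. The share with both HRCS libraries lower outside dense stretches was thus above that of the genome, and the other 3 shares were below. A site without a methylated call in any library is a tie and cannot separate the fractions. Such sites made up 45.7% to 73.3% of the start islands, against 38.4% of dense-stretch sites in the genome. The lower shares inside dense stretches are therefore no result about these genes. Sites outside were not matched to the genome in level or depth. Whether replicates or fractions lay closer together varied with the part. Over the 180 sites of the Nfkb1 gene side, single sites differed on average by 5.19 points between the swim-up libraries and by 5.37 between the HRCS libraries, and by 4.37 to 6.08 between libraries of different fractions. Over the 192 sites of the Zfp521 gene side, both pairs of replicates were closer, with 3.75 and 3.92 points, than any pair of libraries from different fractions, with 4.22 to 4.72. In the Ep300 island, HRCS replicate 2 stood apart from every other library, by 2.94 to 3.18 points on average, against 1.79 to 2.23 among the other 3. It also had the lowest depth there, with a median of 12 reads per site against 16 to 18, and the part of depth was not tested.

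For a test, methylated and unmethylated calls were summed in windows of 200 bp with at least 3 measured sites and compared by the quasi-likelihood test of edgeR, adjusted by the Benjamini-Hochberg method over all 316993 windows of the genome. None of the 104 windows in the 4 intervals passed an adjusted p of 0.05, and 12 windows passed in the whole genome (0.00379%). A window that did not pass is not thereby shown to be equal in both fractions. At an unadjusted p under 0.05 there were 7 windows of 104 (6.73%), 3 higher and 4 lower in HRCS, against 4.63% of all windows. limma on logit levels also called 0 of the 104, with 8 below 0.05 before adjustment, against 5.68% of all windows. Fisher's exact test on the summed calls of both fractions, which treats every call as independent, called 1 of the 104 (against 0.756% of all windows). Windows with both HRCS libraries higher numbered 13 (12.5%, against 16.6% of all windows) and those with both lower 18 (17.3%, against 16.1%).

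The window with the smallest p lay in Zfp521, centred 74.2 kb inside the gene (positions 14056401 to 14056600). Its 4 sites averaged 96.9% and 98.6% in swim-up sperm, against 85.8% and 89.99% in HRCS, on 79 to 137 calls per library. Both HRCS libraries were lower, with a difference of −9.86 points (edgeR adjusted p = 1.00). This is the window that Fisher's test called, with an adjusted p of 0.0230, against 0.859 with limma. It was among the 7 windows at an unadjusted p under 0.05, but not without swim-up replicate 2, when that p was 0.0856. The window beside it (positions 14056201 to 14056400, 3 sites) had 96.6% and 95.1% in swim-up sperm, against 82.1% and 83.1% in HRCS, a difference of −13.2 points (edgeR adjusted p = 1.00). Both windows were named for being lower in HRCS without overlap, so their shared direction is no further result. The second window was past that threshold as well, but not without swim-up replicate 1 or HRCS replicate 1, when p was 0.0612 and 0.0696. Of their 7 sites, the one with the largest difference, at position 14056263, had 15 of 15 and 18 of 19 methylated reads in swim-up sperm and 17 of 23 and 11 of 14 in HRCS. These 7 sites also weighed on the deeper part of the gene. Their windows were picked for being lower in HRCS, so leaving them out had to shrink the decrease. Over all 73 sites beyond 20 kb the difference was −2.45 points, and over the other 66 sites −1.51 points, with 96.8% ± 0.507 in swim-up sperm and 95.3% ± 0.455 in HRCS (SD, n = 2).

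**Figure D4:**
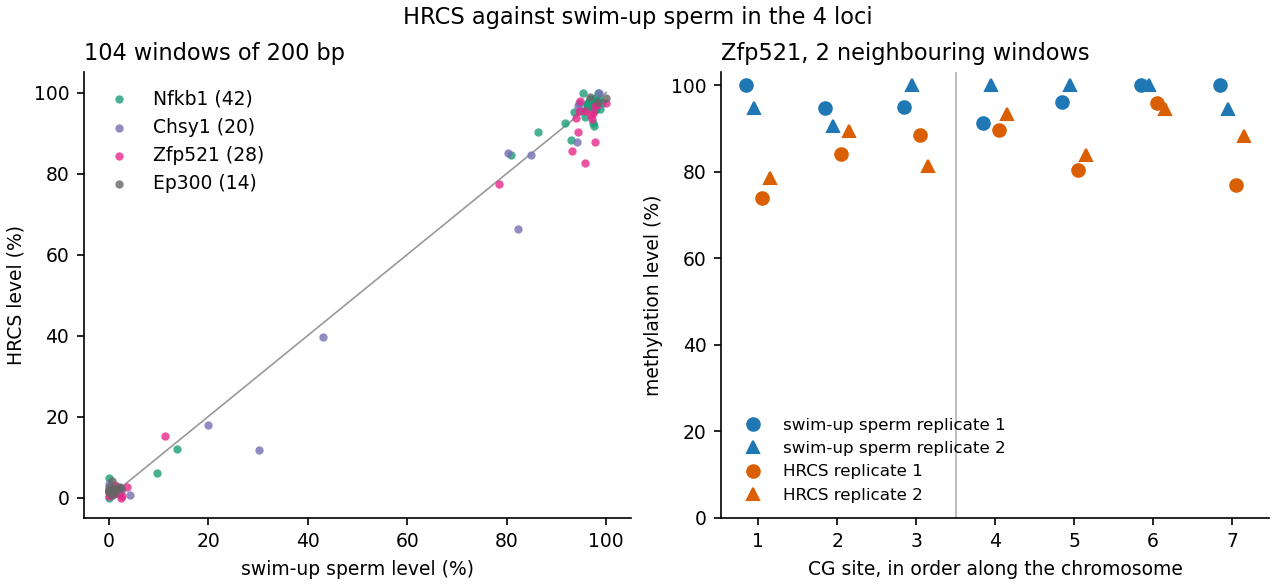
Left, mean level (%) of each of the 104 windows in HRCS against swim-up sperm, coloured by gene with the number of windows in brackets and a grey line of equality. Right, level (%) of the 7 CG sites of the 2 neighbouring Zfp521 windows in each library, with a grey line between the windows, which were chosen because both HRCS libraries lay below both swim-up libraries.

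The remaining windows are given because they had the largest differences without overlap of the fractions in their locus. In Chsy1 no window had an unadjusted p under 0.05. There the largest decrease was the upstream shoulder described above (positions 73252801 to 73253000), with a difference of −18.4 points (edgeR adjusted p = 1.00). It rested on swim-up replicate 1, since the difference was −4.16 points without that library. The next, centred 13.97 kb inside Chsy1 (positions 73269201 to 73269400, 3 sites), had 79.7% and 85.0% in swim-up sperm, against 64.3% and 68.1% in HRCS, a difference of −16.2 points (edgeR adjusted p = 1.00). The largest increases in Chsy1 both lay in its island and were small. At positions 73253801 to 73254000 the level was 0.00% in both swim-up libraries, against 1.94% and 2.04% in HRCS, and at positions 73255201 to 73255400 it was 0.521% and 0.575%, against 3.01% and 1.15%. In Zfp521 the largest increase was centred 2.62 kb from the 97-site stretch, at the border of the low domain (positions 14128001 to 14128200, 8 sites), with 12.5% and 10.2% in swim-up sperm, against 13.02% and 17.3% in HRCS, a difference of 3.82 points. The next lay far inside the gene (positions 13899001 to 13899200, 3 sites), with 94.8% and 94.4% in swim-up sperm, against 95.8% and 100% in HRCS. The largest increase in Ep300 lay inside its island (positions 81415401 to 81415600, 14 sites) and holds the high site named above. Its levels were 0.804% and 0.376% in swim-up sperm, against 4.13% and 4.03% in HRCS (edgeR adjusted p = 1.00), and the adjoining window at the edge of the island had 0.00% in both swim-up libraries and 0.690% and 4.55% in HRCS. In Nfkb1 the largest increase was again in the island (positions 135354801 to 135355000, 5 sites), from 0.00% in both swim-up libraries to 2.86% and 6.67% in HRCS, which amounts to 3 methylated reads in all (edgeR adjusted p = 1.00). The largest decrease in Nfkb1 was centred 105.2 kb inside the gene (positions 135248401 to 135248600, 5 sites), with 95.7% and 99.4% in swim-up sperm, against 88.9% and 94.6% in HRCS (edgeR adjusted p = 1.00). The 2 HRCS libraries were nearly as far apart there as the fractions were. The second window in each direction, at positions 135275601 to 135275800 and 135243401 to 135243600, differed by 4.58 points, from 95.8% and 95% to 100% and 100%, and by −4.93 points, from 97.8% and 96.9% to 90.7% and 94.2%. The only window of Ep300 with both HRCS libraries lower (positions 81480601 to 81480800) differed by −0.621 points. The adjusted p of edgeR was 1.00 in all of these windows. Single libraries decided the size of several of them. Without HRCS replicate 2 the difference was 1.70 points in the Zfp521 window at the border and 1.19 in the one far inside, and without HRCS replicate 1 it was 5.94 and 5.36. In the second Chsy1 island window it was 0.602 points without HRCS replicate 1 and 2.47 without HRCS replicate 2. In the Ep300 window at the edge of the island it was 4.55 and 0.690 in the same order, and in the only lower window of Ep300 −0.170 and −1.07. In Nfkb1 the increase in the island was 2.86 points without HRCS replicate 2, and the decreases were −2.99 and −3.18 without HRCS replicate 1. The Chsy1 shoulder reached −32.7 points without swim-up replicate 2. The other 6 named windows moved by less than 1.5 times when any 1 library was left out.

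Genes that work with the 4 members were unmethylated at their promoters wherever a level could be had, the members themselves not being counted here. This hardly sets them apart, since 95.6% of the 12641 genes with a promoter level stood at or below 10% in HRCS. Of 11 listed genes of the NF-kB family and its regulators, 8 had a promoter level, and all 8 stood at or below 10%, with a median of 0.954% in swim-up sperm and 0.971% in HRCS. They include the subunits Nfkb2, Rel and Rela, the inhibitors Nfkbia, Nfkbib and Nfkbie, and Chuk and Ikbkg of the kinase that inactivates the inhibitors. Both HRCS libraries were higher at Rel and Nfkbib and both were lower at Chuk. Such counts are small in this and the next lists, and over all promoters 20.9% were higher in both and 12.1% lower. Of 10 genes of chondroitin sulfate synthesis 7 had a level, with medians of 0.985% and 0.821%. Both HRCS libraries were lower at Csgalnact2, which starts the chain, at Chpf2 and at Xylt2, and they were higher at none of the 7. Of 8 genes around Zfp521, 6 had a level, with medians of 0.918% and 1.41%, namely its relative Zfp423, the Ebf factors Ebf1 and Ebf3, and the early neural factors Sox1, Pax6 and Otx2. Sox1 and Otx2 were higher in both HRCS libraries and Ebf3 was lower. Of 8 other lysine acetyltransferases, 6 had a level, with medians of 0.883% and 1.61%, and Crebbp, Kat2a and Kat6b were higher in both HRCS libraries. Crebbp, the closest relative of Ep300, had 0.649% and 0.893% in swim-up sperm, against 4.67% and 1.59% in HRCS, from 7 of its 49 promoter CG sites.

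Over these 4 lists, the 27 promoters with a level lay between 0.00% and 4.67% in every library. Of the 12641 genes of the genome with a promoter level, 95.6% stood at or below 10%, with a median of 1.04% in swim-up sperm and 1.16% in HRCS. Both HRCS libraries were higher at 7 of the 27 promoters (25.9%, against 20.9% of all promoters) and lower at 5 (18.5%, against 12.1%). The largest difference was 2.36 percentage points, at Crebbp. As a check of the cell type, the promoters of the germline genes Ddx4, Dazl, Sycp1, Sycp3, Tdrd1 and Mael, which are methylated in most somatic cells, were at 0.146% to 1.78% in swim-up sperm and at 0.743% to 1.67% in HRCS. Those of Snrpn and Peg3, whose imprint is carried by the maternal copy, were at 1.10% and 1.70% in swim-up sperm and at 0.309% and 0.678% in HRCS. H19, methylated on the paternal copy, was planned for this check but had no promoter level. Every marker read here was thus one expected to be low.

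**Figure D5:**
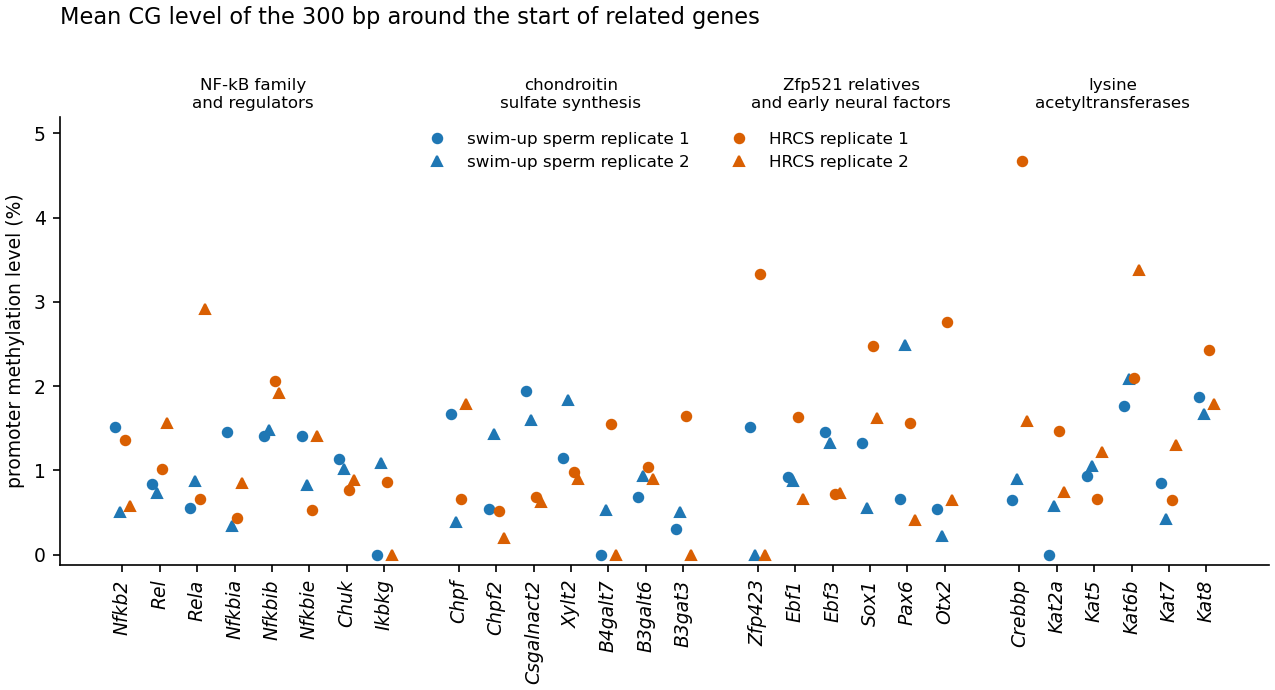
Mean methylation level (%) of the CG sites in the 300 bp around the start of 27 related genes, by list, in each library; circles and triangles are replicates 1 and 2 of swim-up sperm (blue) and HRCS (orange). All points lie below 5%, and the highest is HRCS replicate 1 at Crebbp.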

How the data were processed

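DNA methylation was measured by TGBS in 2 swim-up sperm and 2 HRCS libraries. The authors mapped the single reads to mm9 with Bmap and deposited whole-number read counts for each CG site and strand, the methylated reads and all reads, without normalization. Since the files name no columns, the count that was nowhere larger than the other was read as methylated reads. The version of Bmap, removal of duplicate reads and any minimum coverage are not given in the sources used here. PCR copies are not independent molecules and a read spanning several CG sites is counted at each, so intervals cover counting error only. The depth was between 71379227 and 89403347 calls per library, and in each library 88.7% to 89.6% of the calls were on the minus strand.

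Here, strands were added, a level needed at least 5 reads in every library, and levels of CG sites were averaged without weights over a region. CG-dense stretches held at least 10 listed CG sites per 200 bp, were joined when at most 100 bp apart and kept from 20 sites on. The strand of each gene came from GENCODE vM21. The reference was of another build (GRCm38), so no coordinate was converted. RefSeq promoters were placed in mm9 by the exact spacing of at least 7 CG sites, which gave a single place for 16906 of 17116 such promoters, all on the chromosome of the table. Island and gene side were compared within libraries by an exact sign-flip permutation test. Fractions were compared in windows of 200 bp with at least 3 sites by edgeR's quasi-likelihood test, with library terms and Benjamini-Hochberg adjustment, threshold 0.05. The test was checked on simulated libraries, where it missed most of the smallest changes put in.

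The windows named were, per locus, up to 2 of the largest increases and up to 2 of the largest decreases with no overlap of the libraries, together with the 3 highest sites of each island and every further dense stretch. The member genes and the lists were chosen with earlier results of these data known. Alternatives were minimums of 10 and 20 reads, pooled calls, 8 and 15 CG sites per 200 bp, separate strands, windows of 500 bp, at least 5 sites per window, a replicate block, limma, Fisher's exact test and leaving out each library. Same-numbered libraries did not deviate together (r = −0.00176 over 316993 windows), so replicate numbers were not read as pairs. Models were fitted with edgeR 4.0.16 and limma 3.58.1 under R 4.3.3. Levels were computed in Python 3.11.15 (pandas 2.3.3, numpy 2.4.6, scipy 1.17.1) and drawn with matplotlib 3.10.9.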

Additional observations from a re-analysis of the deposited data

How the results depend on the processing

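The gap between gene side and start island stayed positive under all 43 alternatives, over ranges of 94.2 to 94.6 points for Nfkb1, 49.2 to 69.5 for Chsy1, 41.7 to 85.8 for Zfp521 and 89.9 to 97.0 for Ep300. Since the gap was positive in every library, leaving 1 out could not turn its sign, and some settings left the sites unchanged. With a minimum of 20 reads the Nfkb1 island had no site left, so that gap was not computed. Of the differences between fractions, 77 of 87 alternatives stayed within 1 SD between replicates. With 2 libraries per fraction, leaving 1 out cannot move a difference by that much. Several other alternatives left the measured sites unchanged, so this count is no measure of stability. Leaving out 1 library turned the sign in 5 of the 8, with −0.253 to 0.564 points for the Nfkb1 island, −0.146 to 0.527 for Chsy1, −0.173 to 1.03 for Zfp521, −0.737 to 0.510 for the Nfkb1 gene side and −2.00 to 0.707 for Ep300. A minimum of 10 reads gave 1.20 points for the Chsy1 island, −0.556 for the Zfp521 island on 3 sites and 1.64 for the Ep300 gene side on 4 sites. A minimum of 20 reads gave −1.55 for the Nfkb1 gene side, 0.850 for the Chsy1 island on 2 sites and −1.67 for the Zfp521 island on 1 site. Pooled calls gave −0.209 for the Chsy1 gene side, −2.26 for the Zfp521 gene side and 1.76 for the Ep300 gene side. Joining stretches up to 500 bp apart, a choice made after seeing the data, gave −1.83 for the Zfp521 gene side. The number of windows past the adjusted p in the genome, 12 with edgeR, was 6 with a minimum of 10 reads, 4 in windows of 500 bp, 4 with at least 5 CG sites per window, 0 with limma (18000 at an unadjusted p under 0.05), 2397 with Fisher's exact test and 2 to 5 when 1 library was left out. With the replicate block it was 11. In the 4 loci the count was 0 in each of these fits except Fisher's exact test, which gave 1. The causes were not tested. The depth limits single sites most, since at 5 reads 1 read moves a level by 20 points.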
